A study of Mus musculus with 8 samples.

Results

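The genes described here are markers of the blood vessel lining and of the mural cells around it. They were chosen by name from a fixed list of 41 symbols (endothelial markers, with glomerular and peritubular types, and markers of pericytes and smooth muscle), and 40 of the 41 were found among the 15948 genes measured. The name Cldn5x matched no gene. Of the 40 genes, 33 are endothelial and 7 are mural, and 39 had a mean of at least 100 normalized counts. The exception was Lyve1.

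The 8 RNA samples were of mouse kidney, from work on hypertension and renal injury after loss of Arhgef11, a guanine nucleotide exchange factor. The 5 control libraries were labelled Sglt2Cre_DOCA and the 3 others Arhgef11Sglt2_DOCA. Both names carry Sglt2, a glucose transporter whose promoter is used to drive Cre in the first segments of the proximal tubule. A knockout in that tubule is named in the title of the study. Both groups also carry the label DOCA, the usual short form of the mineralocorticoid deoxycorticosterone acetate, so every comparison is between treated kidneys. The labels used here gave no age, sex, strain, dose or genotype beyond these names, and did not say whether each library came from a separate mouse, so the p-values measure only the spread between these samples. Sglt2 marks tubule cells, while the genes below were chosen as markers of vessels.

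In bulk kidney RNA, a lower marker level can come from fewer vessel cells, from less RNA per cell or from other cells that make the gene. These cannot be told apart. Endothelial cells line every vessel and are held in a specialised state by growth factor receptors of the VEGF and angiopoietin systems and by Notch and SOX proteins. In the kidney they differ by place: glomerular capillaries have open fenestrae, while the fenestrae of peritubular capillaries are closed by a diaphragm that contains the protein Plvap. Pericytes, mesangial cells and smooth muscle cells surround these vessels and contract or support them.

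Levels are given as normalized counts, obtained by inverting the variance-stabilized log2 scale of the deposited table, and differences as log2 values on that deposited scale (Arhgef11Sglt2 minus control). This scale compresses the differences of low genes. Normalized counts summed to between 43039280 and 46676184 per library, and the depth estimated from the spacing of low values was 33100000 to 59500000 reads. That estimate is rough, since only 30.4% to 54.1% of the low values lay within 0.02 of a whole step. Arhgef11 itself, summed over all cells and transcripts, had 3680 ± 162 normalized counts (SD, n = 5) in the control group and 3587 ± 564 (SD, n = 3) in the group labelled Arhgef11Sglt2. Its level therefore does not check the labels, and the groups are named as labelled. The kidney marker Umod, a thick ascending limb protein, had 188453 to 229031 normalized counts.

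No difference between the groups passed the test in any of the 40 vessel genes. In limma with Benjamini-Hochberg adjustment over all 15948 genes, 0 of the 40 passed an adjusted p of 0.05, where 2.22% of all genes passed (0.627% higher and 1.59% lower). At an unadjusted p of 0.05, again 0 of the 40 passed, where 21.1% of all genes did. The smallest adjusted p among them was 0.265, for Gpihbp1. No gene of the 40 had groups without overlap, against 14.3% of all genes. The median log2 difference was 0.03 (24 positive and 16 negative), beside -0.01 over all genes.

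**Figure D1:**
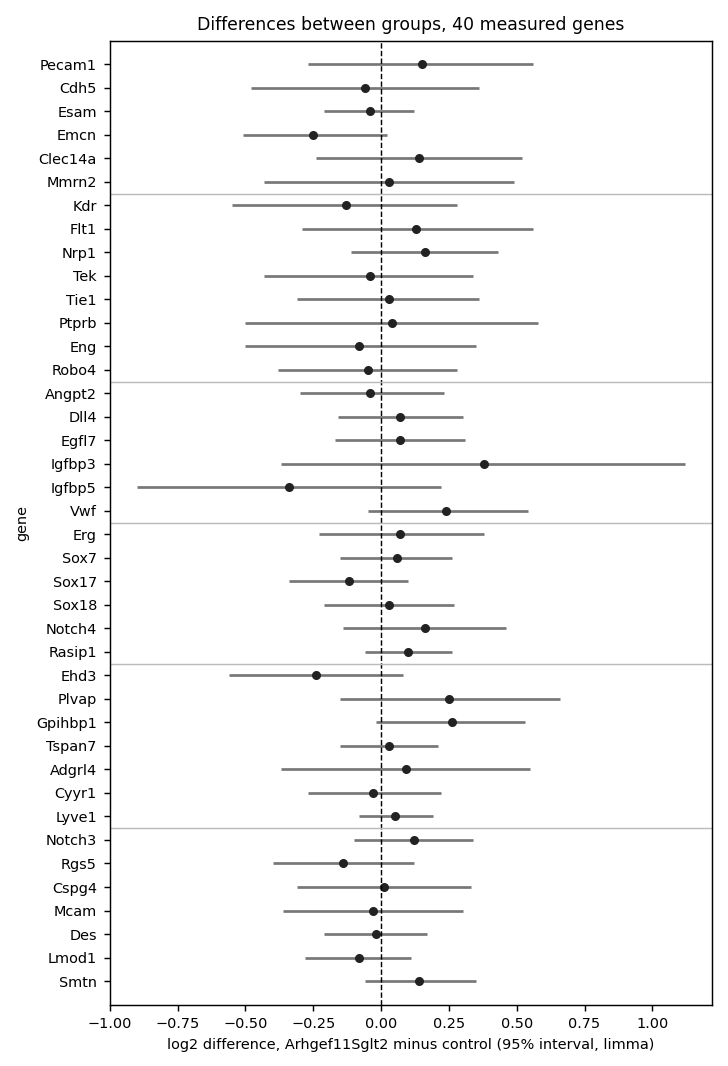
Log2 difference between groups (x axis, Arhgef11Sglt2 minus control) for the 40 measured genes (y axis, grouped by role from junction genes at the top to mural genes at the bottom), with points for limma estimates and bars for 95% intervals. Every interval includes 0, and the highest upper bound, that of Igfbp3, reaches 1.12.

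How small a change these data could have hidden differs by gene. On the deposited scale, the 95% intervals of 26 of the 40 genes lay within 0.5 log2 units of 0, and those of 39 lay within 1. This scale compresses low genes, so for them the intervals understate the fold changes that could be hidden. The SE of Clec14a was 0.17 on this scale and 0.28 as log2 of the normalized count plus 1. The 26 include Lyve1 (-0.08 to 0.19), which was too low to read. The exception was Igfbp3. The median interval half-width was 0.30 for the 40 genes and 0.18 for all genes. The endothelial genes had a median half-width of 0.31 and the mural genes of 0.22.

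Much of the control spread of many, but not all, of the endothelial genes came with 1 library. Control replicate 2 was the lowest of all 8 libraries for 27 of the 40 genes (67.5%), where it was the lowest for 17.4% of all genes. This held for 24 of the 33 endothelial and 3 of the 7 mural genes. Its median over the endothelial genes was -0.36 log2 units relative to the control mean, while the other controls lay between -0.02 and 0.23. The value of 0.23 was that of control replicate 5, the highest of all 8 libraries for 20 of the 40 genes. No share over all genes was taken for that count. The coefficient of variation of Pecam1 in the controls was 23.8%, and 9.67% without control replicate 2, and for Eng it was 23.5% and 5.52%. It changed little for Esam (10.9% and 10.2%) and Sox17 (22.5% and 22.9%) and rose for Vwf (39.2% and 45.6%). The estimated depth of control replicate 2 was 46000000 reads, within the range of the others. Its share of low values near a whole step (30.4%) was the lowest of the 8 libraries, so this depth is uncertain. In a list of 35 further endothelial genes, among them Cd34 and Calcrl, control replicate 2 was lowest of 8 for 21 and had a median of -0.20. Cldn5, the main endothelial claudin, was not lowest there (237, beside 197 to 263 in the other controls). Other lists were low in the same library too. Its median was -0.22 for genes of endothelial activation, -0.18 for the 7 mural genes, -0.17 for genes of VEGF, Notch and PDGF signalling, -0.15 for platelet and red cell genes, -0.14 for further mural genes and -0.10 for podocyte genes. It was -0.08 for proximal tubule, -0.06 for macrophage, -0.04 for lymphatic, 0.02 for fibroblast, 0.09 for thick ascending limb and 0.16 for distal nephron genes. The platelet and red cell genes were lower still in control replicate 5 (-0.17) and Arhgef11Sglt2 replicate 1 (-0.26). The further mural genes were lower still in Arhgef11Sglt2 replicate 3 (-0.19). The part of sampling, of vessel content or of handling in the low values of control replicate 2 was not tested.

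**Figure D2:**
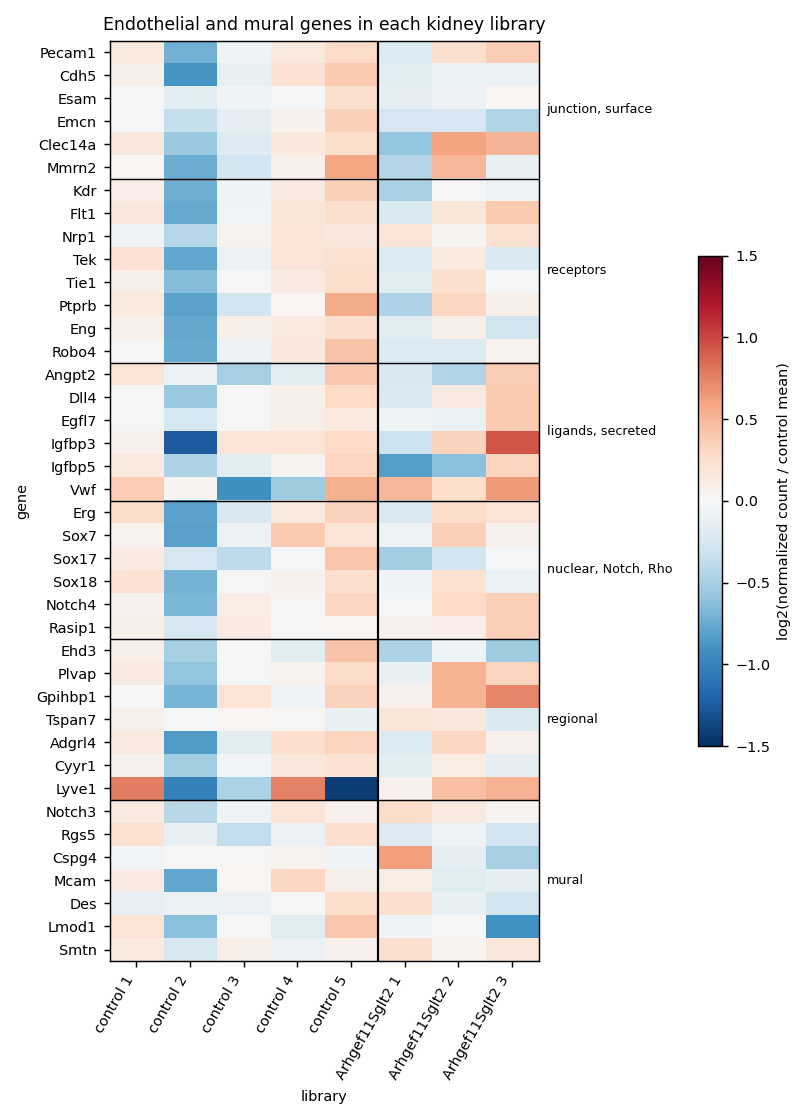
Heat map of the 40 genes (rows, by role) in the 8 libraries (columns, controls left of the line), with colour for log2 of the normalized count over the control mean. The column of control replicate 2 is blue for most endothelial genes, down to 36.8% of the other controls' mean for Igfbp3, and near white for Cspg4 and Vwf.

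Junction and surface genes build the seal between endothelial cells. Pecam1, an adhesion molecule of endothelial contacts, had 3558, 1952, 3089, 3558 and 3922 normalized counts in control replicates 1 to 5 and 2786, 3804 and 4153 in Arhgef11Sglt2 replicates 1 to 3. Control replicate 2 was low and the groups overlapped (log2 difference 0.15, SE 0.19, limma adjusted p = 0.69). Cdh5, the cadherin of endothelial adherens junctions, had 2270, 1151, 1970, 2477 and 2789 in the controls and 1900, 1995 and 1992 in the Arhgef11Sglt2 libraries. The Arhgef11Sglt2 libraries were nearly equal to one another and lay inside the control range (log2 difference -0.06, limma adjusted p = 0.895).

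Emcn, a sialomucin of capillary and venous endothelium, is shown because it had the second smallest p of the 40 genes, a choice made after its values were seen. It had 2549, 2034, 2367, 2716 and 3342 normalized counts in the controls and 2185, 2186 and 1909 in the Arhgef11Sglt2 libraries. All 3 Arhgef11Sglt2 libraries lay below 4 of the 5 controls, and control replicate 2 lay among them. The mean was 1.24-fold lower (log2 difference -0.25, 95% interval -0.51 to 0.02, limma adjusted p = 0.272). Esam, an adhesion molecule, and the binding partners Clec14a and Mmrn2 had differences of -0.04, 0.14 and 0.03. Clec14a was high in Arhgef11Sglt2 replicates 2 and 3 (1004 and 937) and low in replicate 1 (442), beside 448 to 793 in the controls.

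The receptors of the VEGF and angiopoietin systems carry survival and growth signals into the endothelium. Kdr (VEGFR2), the main signalling receptor for VEGF-A, had 3541, 1991, 3158, 3645 and 4236 normalized counts in the controls and 2358, 3284 and 3147 in the Arhgef11Sglt2 libraries. Flt1 (VEGFR1), which binds VEGF-A tightly and signals weakly, had 3861, 2042, 3339, 3892 and 4044 against 2945, 3898 and 4499. Both receptors were lowest in control replicate 2, and for both the groups overlapped, with log2 differences of -0.13 (SE 0.19) for Kdr and 0.13 (SE 0.19) for Flt1. The limma adjusted p was 0.728 for Kdr and 0.731 for Flt1.

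Tek (Tie2), the angiopoietin receptor, had 2250, 1128, 1830, 2218 and 2279 normalized counts in the controls and 1684, 2155 and 1658 in the Arhgef11Sglt2 libraries. Here too the Arhgef11Sglt2 libraries fell between control replicate 2 and the other controls or among them (log2 difference -0.04, limma adjusted p = 0.913). Tie1, its co-receptor, Ptprb (VE-PTP), a phosphatase that restrains Tek, Eng (endoglin), a co-receptor of BMP and TGF-beta ligands, Robo4, a receptor of vessel stability, and the VEGF co-receptor Nrp1 had differences between -0.08 (Eng) and 0.16 (Nrp1). All 8 receptors were lowest in control replicate 2. That library held between 51.9% (Ptprb) and 69.8% (Nrp1) of the mean of the other controls.

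The start regions of 3 of these receptor genes are shown because ETS factors such as Erg act on many endothelial promoters. They are the 250 bases before the annotated start, from RefSeq on build GRCm38.p6, all on the minus strand, 5′ to 3′. Capitals mark AGGAAG, a sequence that holds the ETS core, or its reverse complement. They lie at chr5:75978456-75978705 (Kdr), chr5:147726012-147726261 (Flt1) and chr4:118489850-118490099 (Tie1).
Kdr: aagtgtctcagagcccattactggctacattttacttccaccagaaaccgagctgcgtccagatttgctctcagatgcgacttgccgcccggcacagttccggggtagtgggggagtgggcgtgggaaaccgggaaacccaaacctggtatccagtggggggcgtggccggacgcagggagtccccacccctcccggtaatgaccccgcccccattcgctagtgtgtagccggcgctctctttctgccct
Flt1: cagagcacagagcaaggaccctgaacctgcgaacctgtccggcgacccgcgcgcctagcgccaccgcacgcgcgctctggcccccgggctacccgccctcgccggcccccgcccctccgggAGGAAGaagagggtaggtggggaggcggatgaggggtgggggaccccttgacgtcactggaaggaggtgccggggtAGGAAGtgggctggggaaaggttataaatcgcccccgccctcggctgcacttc
Tie1: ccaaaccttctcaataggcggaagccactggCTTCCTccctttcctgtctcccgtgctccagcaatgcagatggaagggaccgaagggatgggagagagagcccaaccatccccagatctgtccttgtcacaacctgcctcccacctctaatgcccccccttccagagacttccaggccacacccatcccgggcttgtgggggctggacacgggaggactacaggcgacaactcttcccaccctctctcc
On both strands AGGAAG occurred 2 times in the Flt1 window, 1 time in the Tie1 window and 0 times in the Kdr window. It also occurred 0 times in the Tek window, which is not shown. Other forms of the ETS core were not searched, so a count of 0 does not mean that ETS sites are absent. Windows were found for 20 endothelial and 7 mural genes. AGGAAG was in 13 of 24 endothelial windows (54.2%) and in 0 of 7 mural windows, against 29.5% of all 32851 windows of this length. AACAAT, a SOX core, was in 3 of the 24 endothelial windows (12.5%) against 9.42% of all windows. The CArG box of serum response factor was in 0 of the 7 mural windows, where 1.47% of all windows hold it. The motifs were searched separately, and a match is a description of letters and not of binding.

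Among secreted factors and ligands, Angpt2, the angiopoietin that destabilises vessels, Dll4, the Notch ligand of tip and arterial cells, and Egfl7, a secreted endothelial factor, had differences of -0.04, 0.07 and 0.07. Vwf, the platelet-binding protein of larger vessels, had 336, 264, 136, 177 and 373 normalized counts in the controls and 364, 309 and 400 in the Arhgef11Sglt2 libraries. Unlike most of the endothelial genes it was not low in control replicate 2 (103% of the mean of the other controls). Its difference was 0.24 (limma adjusted p = 0.323).

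The IGF-binding proteins, which hold insulin-like growth factors outside cells, had the widest intervals. Igfbp3 had 6227, 2494, 6757, 6848 and 7270 normalized counts in the controls and 4737, 7510 and 11352 in the Arhgef11Sglt2 libraries. Control replicate 2 was the lowest and Arhgef11Sglt2 replicate 3 the highest, and the difference of 0.38 (95% interval -0.37 to 1.12, limma adjusted p = 0.552) was 0.12 without the former and 0.09 without the latter. Igfbp5 had 15007 to 25932 in the controls and 11676, 13407 and 26202 in the Arhgef11Sglt2 libraries. Arhgef11Sglt2 replicates 1 and 2 lay below every control and replicate 3 lay above every control (difference -0.34, 95% interval -0.90 to 0.22, limma adjusted p = 0.47).

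On the deposited scale, the intervals of all 6 nuclear and signalling genes of endothelial identity lay within 0.5 log2 units of 0. Their control means ran from 180 (Sox7) to 965 (Notch4) normalized counts, where this scale compresses differences. These intervals therefore do not exclude larger fold changes. Erg, an ETS factor that maintains the endothelial state, had a difference of 0.07 (95% interval -0.23 to 0.38). Sox7, Sox17 and Sox18, related factors of arterial and lymphatic fate, had 0.06, -0.12 and 0.03. Notch4, an endothelial Notch receptor, and Rasip1, a Ras-binding protein needed for vessel lumens, had 0.16 and 0.10. Control replicate 2 was the lowest library for 5 of the 6, the exception being Sox17.

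Some of the genes differ between vessel types. Ehd3, an endocytic ATPase enriched in glomerular capillaries, had 1566, 1046, 1473, 1321 and 1987 normalized counts in the controls and 1071, 1420 and 1020 in the Arhgef11Sglt2 libraries. The means differed 1.26-fold, lower in the Arhgef11Sglt2 group, and the groups overlapped (log2 difference -0.24, 95% interval -0.56 to 0.08, limma adjusted p = 0.372). Plvap, the diaphragm protein of peritubular fenestrae, had 5903, 3541, 5256, 5564 and 6515 in the controls and 4966, 7719 and 6733 in the Arhgef11Sglt2 libraries. Arhgef11Sglt2 replicates 2 and 3 lay above every control and replicate 1 below 4 of them (difference 0.25, 95% interval -0.15 to 0.66, limma adjusted p = 0.453).

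Gpihbp1, which anchors lipoprotein lipase on the capillary wall, had the smallest p of the 40 genes and is shown for that reason. It had 411, 253, 473, 395 and 520 normalized counts in the controls and 429, 587 and 683 in the Arhgef11Sglt2 libraries, with replicates 2 and 3 above every control (difference 0.26, 95% interval -0.02 to 0.53, limma adjusted p = 0.265, exact permutation p = 0.107). Tspan7, a tetraspanin, Adgrl4, an adhesion receptor, and Cyyr1 had differences of 0.03, 0.09 and -0.03. Lyve1, a hyaluronan receptor of lymphatic vessels and some macrophages, had only 4.56 to 20.6 normalized counts in the controls and 12.7 to 17.3 in the Arhgef11Sglt2 libraries. At this level a change in lymphatic vessels was not detectable from Lyve1. None of the other lymphatic markers tested (Prox1, Pdpn, Flt4, Ccl21a, Reln and Mmrn1, of which Prox1, Pdpn and Flt4 are also made by other kidney cells) passed in limma over all genes, and 1 had an unadjusted p under 0.05, Reln (difference -0.44, limma adjusted p = 0.0955). Of all genes, 21.1% had an unadjusted p under 0.05.

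**Figure D3:**
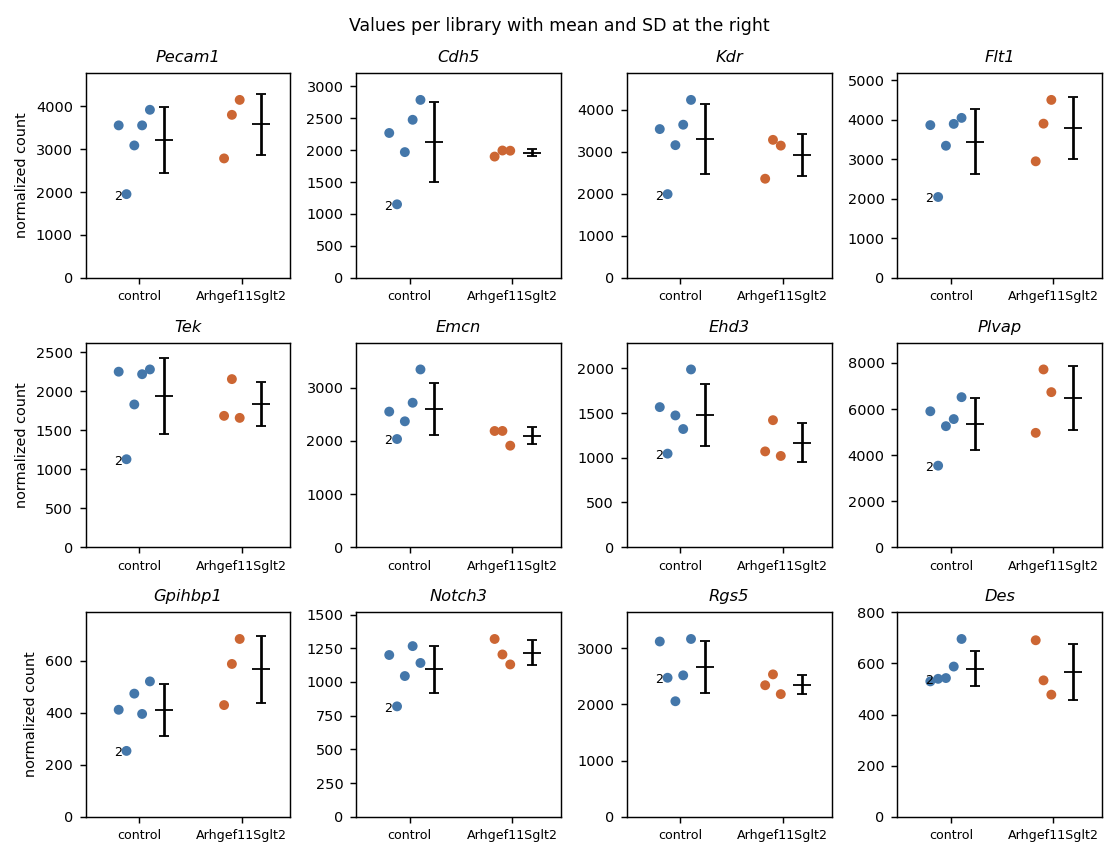
Normalized counts (y axis, from 0) of 12 genes in each library, controls in blue and Arhgef11Sglt2 in orange, with the group mean and SD as a black bar to the right and control replicate 2 marked 2. Control replicate 2 is the lowest control for 10 of them, not for Rgs5 and Des, and the groups overlap in each.

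Control replicate 2 was also the lowest control for 4 of the 7 mural genes, and their median there (-0.18) was the lowest of the 8 libraries. Notch3, the Notch receptor of mural cells, had 1200, 819, 1044, 1266 and 1141 normalized counts in the controls and 1319, 1204 and 1130 in the Arhgef11Sglt2 libraries. The groups overlapped, with control replicate 2 again lowest (difference 0.12, limma adjusted p = 0.535). Rgs5, a G protein regulator of pericytes, had 3118, 2473, 2055, 2516 and 3163 against 2340, 2533 and 2182, with no library apart (difference -0.14, limma adjusted p = 0.535). Des, the intermediate filament desmin, had 530, 540, 543, 588 and 696 against 691, 534 and 478, so the Arhgef11Sglt2 libraries lay on either side of most controls (difference -0.02, limma adjusted p = 0.919).

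Cspg4 (NG2), a proteoglycan of pericytes, had the smallest coefficient of variation of the 40 genes in the controls (3.04%). It had 1024, 1066, 1067, 1087 and 1011 normalized counts in the controls and 1617, 956 and 742 in the Arhgef11Sglt2 libraries. Replicate 1 lay above every control and replicates 2 and 3 below every control, so the difference of 0.01 (95% interval -0.31 to 0.33) averaged opposite values, and it was -0.21 without replicate 1 (limma adjusted p = 0.113). In the same libraries macrophage genes had medians of 0.54, -0.06 and -0.61 relative to the controls and fibroblast genes 0.26, -0.03 and -0.40, in the same order as Cspg4. The 7 mural genes, which include Cspg4, had 0.16, -0.05 and -0.15, also in that order. The 22 further mural genes had -0.11, -0.08 and -0.19, in another order. The part of each cell type in the Cspg4 values was not tested. Mcam (CD146), shared by endothelium and mural cells, was lowest in control replicate 2 (695, beside 1213 to 1481 in the other controls and 1046 to 1282 in the Arhgef11Sglt2 libraries). Lmod1 and Smtn, actin-associated proteins of smooth muscle, had differences of -0.08 and 0.14.

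**Figure D4:**
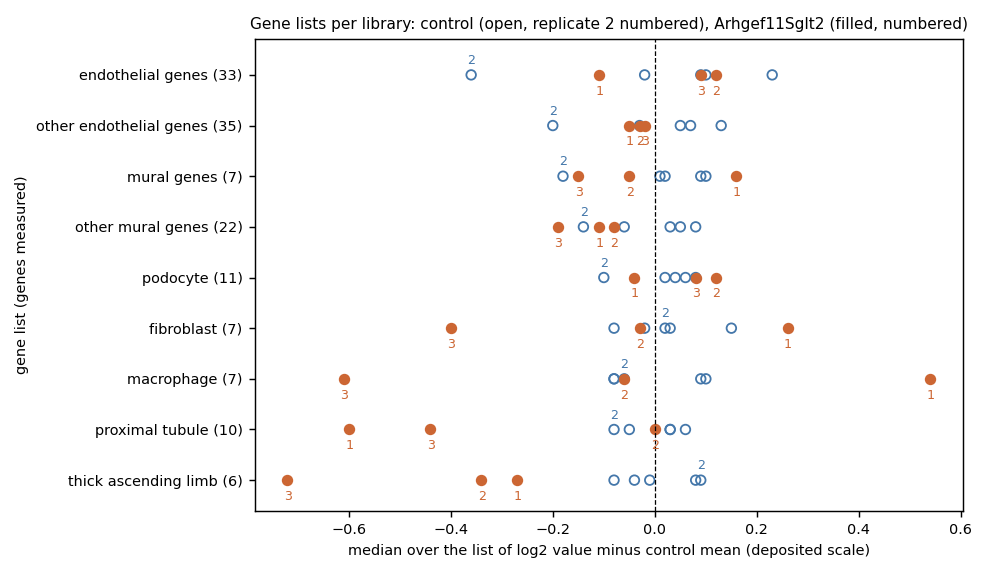
Median over each gene list (y axis, with the number of genes) of the log2 value minus the control mean (x axis) in each library, with open points for controls and filled, numbered points for Arhgef11Sglt2. The endothelial genes are lowest in control replicate 2 (-0.36), while the macrophage genes spread from -0.61 to 0.54 within the Arhgef11Sglt2 group.

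Because control replicate 2 was low for most of the endothelial genes, the comparison was repeated without it. Again 0 of the 40 genes passed in limma over all genes (1.78% of all genes did), and the median difference went from 0.03 to -0.04, with 24 of the 40 negative. At an unadjusted p of 0.05, 4 of the 40 passed, all lower, where 19.5% of all genes did. They were Emcn (-0.32, limma adjusted p = 0.157), Ehd3 (-0.32, limma adjusted p = 0.203), Eng (-0.24, limma adjusted p = 0.214) and Kdr (-0.28, limma adjusted p = 0.249). Without Arhgef11Sglt2 replicate 1, where 8.36% of all genes passed, 0 of the 40 passed. At an unadjusted p of 0.05, 4 of the 40 did (28.6% of all genes): Clec14a (0.37, limma adjusted p = 0.0991), Gpihbp1 (0.36, limma adjusted p = 0.104), Cspg4 (-0.21, limma adjusted p = 0.113) and Plvap (0.42, limma adjusted p = 0.174). With the median of the endothelial genes in each library as a covariate, a fit chosen after seeing the data that uses the tested genes themselves, 0 of the 40 passed, where 3.14% of all genes did. At an unadjusted p of 0.05, 5 of the 40 passed there (22.4% of all genes), with Kdr, Emcn and Ehd3 lower and Gpihbp1 and Plvap higher. Kdr had the smallest p of these (difference -0.20, limma adjusted p = 0.0911).

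A ratio of 2 endothelial genes within a library does not depend on how much vessel RNA the library holds if both genes scale with it. Ratios were examined after the values were seen, so they are given as descriptions. The ratio of Ehd3 to Plvap was 0.265, 0.295, 0.280, 0.237 and 0.305 in the controls and 0.216, 0.184 and 0.152 in the Arhgef11Sglt2 libraries. The groups did not overlap, and the control mean was 1.51-fold the other. Control replicate 2 was not low by this measure. The lack of overlap fixes the same order within each range of library numbers, so the ranges add no separate check. The values were 0.265 to 0.295 against 0.216 and 0.184 in the lower range, and 0.237 and 0.305 against 0.152 in the upper. Of all other genes, 6.90% had a ratio to Plvap without overlap. The ratio of Ehd3 to Igfbp3 overlapped between the groups (0.193 to 0.419 against 0.0899 to 0.226).

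The ratio of Kdr to Flt1 was 0.917, 0.975, 0.946, 0.936 and 1.05 in the controls and 0.801, 0.842 and 0.699 in the Arhgef11Sglt2 libraries. The groups did not overlap, and the control mean was 1.23-fold the other, while 4.26% of all other genes had a ratio to Flt1 without overlap. Gpihbp1 over Pecam1 was 0.111 to 0.153 in the controls and 0.154, 0.154 and 0.164 in the Arhgef11Sglt2 libraries, so the groups only just separated (4.60% of all other genes had a ratio to Pecam1 without overlap). The ratios of Emcn to Plvap, Emcn to Pecam1, Tek to Tie1, Angpt2 to Tek and Cdh5 to Pecam1 were also examined. In each of these the groups overlapped. Over all 780 pairs of the 40 genes, 32 (4.10%) had ratios without overlap, a share near or below those for all genes.

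**Figure D5:**
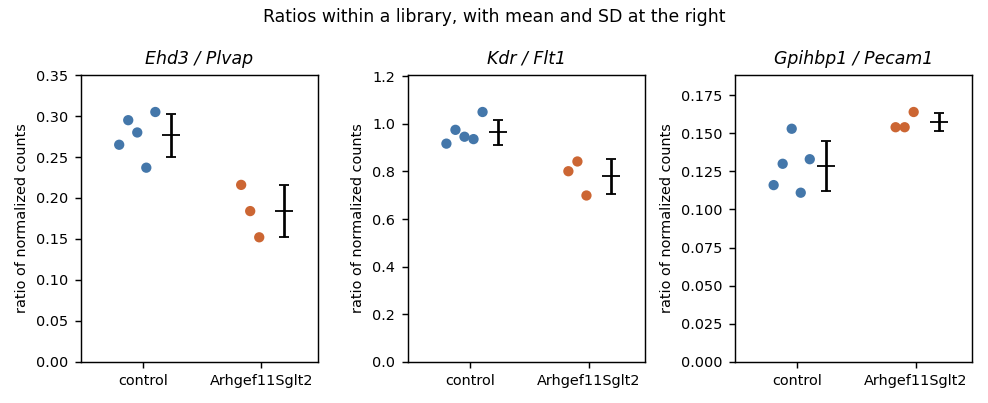
Ratio of normalized counts within each library (y axis, from 0) for 3 gene pairs, controls in blue and Arhgef11Sglt2 in orange, with mean and SD as a black bar. These 3 are shown because, of the ratios examined, only they had groups without overlap. Ehd3 over Plvap and Kdr over Flt1 are lower in all 3 Arhgef11Sglt2 libraries (0.152 to 0.216 and 0.699 to 0.842), and Gpihbp1 over Pecam1 is slightly higher.

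The ligands and partners of these receptors were taken from a list of 32 genes of VEGF, angiopoietin, Notch, PDGF and BMP signalling. None passed in limma over all genes, 7 had an unadjusted p under 0.05 (21.1% of all genes did), and the median difference was 0 beside -0.01 for all genes. The 3 with the smallest p were Vegfa, Aplnr and Klf4. Vegfa, the ligand of Kdr and Flt1 made largely by podocytes and tubules, had 11629, 10437, 11274, 10943 and 11477 normalized counts in the controls and 9139, 9084 and 9137 in the Arhgef11Sglt2 libraries. The 3 Arhgef11Sglt2 libraries were nearly equal and below every control, 1.22-fold lower in the mean (difference -0.27, SE 0.07, limma adjusted p = 0.0634).

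Aplnr, the apelin receptor of veins and growing capillaries, had 779, 619, 787, 1212 and 1350 normalized counts in the controls and 644, 299 and 195 in the Arhgef11Sglt2 libraries. Replicates 2 and 3 lay well below every control and replicate 1 above the lowest (2.50-fold lower in the mean, difference -0.81, 95% interval -1.28 to -0.33, limma adjusted p = 0.079). Without replicate 1, where 8.36% of all genes passed, Aplnr passed (difference -1.05, limma adjusted p = 0.0208). So did Id3 of the same list, which was higher (difference 0.62, limma adjusted p = 0.0217). Klf4, a flow-responsive factor that is not limited to vessels, had 378 to 540 in the controls and 598 to 907 in the Arhgef11Sglt2 libraries (limma adjusted p = 0.102). Angpt1, the mural and podocyte ligand of Tek, had 758 to 1178 against 532, 883 and 554 (limma adjusted p = 0.156). Pdgfb and its mural receptor Pdgfrb had differences of 0.24 and 0.01.

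Of the 35 further endothelial genes, 0 passed in limma and 4 had an unadjusted p under 0.05, where 21.1% of all genes did. Their median difference was -0.04. The smallest p belonged to Cav1, the coat protein of caveolae, which other kidney cells also make. It had 1812 to 2395 normalized counts in the controls and 1710, 1337 and 943 in the Arhgef11Sglt2 libraries, all below the controls (1.54-fold lower, limma adjusted p = 0.0788). It passed without Arhgef11Sglt2 replicate 1 (difference -0.65, limma adjusted p = 0.0197), where 8.36% of all genes did. The next were Pcdh12, an endothelial protocadherin (difference -0.37, limma adjusted p = 0.144), and S1pr1, the sphingosine 1-phosphate receptor of endothelial barriers (0.35, limma adjusted p = 0.163).

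Of 10 genes of endothelial activation and clotting, 1 rose, where 0.627% of all genes did. An unadjusted p under 0.05 was found for 4 of the 10 (21.1% of all genes). The differences were positive for 8 and negative for 2, with a median of 0.24. Plat, the tissue plasminogen activator, had 2450, 1798, 2277, 2347 and 2280 normalized counts in the controls and 4037, 2989 and 3125 in the Arhgef11Sglt2 libraries, with no overlap. It was 1.52-fold higher (difference 0.50, SE 0.11, limma adjusted p = 0.0474), and its call was lost when any 1 control, or Arhgef11Sglt2 replicate 3, was left out (limma adjusted p of 0.0588 to 0.119), or when totals were scaled to be equal (0.0512). Tubule cells also make Plat. Sele of the same list was higher and passed without Arhgef11Sglt2 replicate 1 (difference 0.31, limma adjusted p = 0.0335), where 8.36% of all genes did. Of 11 podocyte genes, 1 fell, where 1.59% of all genes did, while 8 of the 11 had a positive difference and the median was 0.08. The one that fell was Clic5. This gene, a chloride channel family protein of podocytes and glomerular endothelium, had 5918 to 7120 against 4119, 4909 and 3827 (difference -0.54, SE 0.09, limma adjusted p = 0.0253). It was no longer called without control replicate 4 or 5 or Arhgef11Sglt2 replicate 3 (limma adjusted p of 0.07 to 0.0999).

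Of 22 further mural genes, 0 passed in limma and 6 had an unadjusted p under 0.05, where 21.1% of all genes did. A negative difference was found for 16 of the 22, with a median of -0.08. The smallest p values belonged to contractile genes, but such genes were not all alike. Acta2 was also lower (difference -0.60, limma adjusted p = 0.176). Myh11, Tagln and Cnn1 had differences of -0.15, -0.29 and -0.07, each with an unadjusted limma p over 0.05. Of the 7 mural genes above, Smtn, Lmod1 and Des had 0.14, -0.08 and -0.02. Which cells these transcripts came from was not tested. Myl9, a myosin light chain, had 1481 to 2310 normalized counts in the controls and 1303, 1417 and 906 in the Arhgef11Sglt2 libraries, with no overlap (1.66-fold lower, limma adjusted p = 0.0745). It passed without control replicate 2 (difference -0.64, limma adjusted p = 0.045), where 1.78% of all genes did. Tpm2, a tropomyosin, and Mylk, the myosin light chain kinase, had differences of -0.36 and -0.46 with limma adjusted p of 0.113 and 0.127. Without Arhgef11Sglt2 replicate 1, where 8.36% of all genes passed, Tpm2 did (-0.49, limma adjusted p = 0.0242).

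Markers of other kidney cells gave the setting of these values. Of 10 proximal tubule genes 2 fell, Lrp2 (difference -0.73, limma adjusted p = 0.0462) and Slc34a1 (-0.72, limma adjusted p = 0.0491), and of 6 thick ascending limb genes 1 fell, Cldn10 (-0.54, limma adjusted p = 0.0476). Over all genes, 1.59% fell. All 10 proximal tubule genes had a negative difference and 5 had an unadjusted p under 0.05 (21.1% of all genes did). Of the 6 thick ascending limb genes, 4 had an unadjusted p under 0.05 and 4 were lower without overlap. Of all genes, 14.3% had groups without overlap in either direction. The calls of Lrp2, Slc34a1 and Cldn10 were lost when any 1 control or Arhgef11Sglt2 replicate 3 was left out (limma adjusted p of 0.0589 to 0.196). That of Slc34a1 was also lost without Arhgef11Sglt2 replicate 1 (0.052), and that of Cldn10 without replicate 2 (0.0834). Over all the further lists 5 genes were called in the original fit, and 0 with a block for replicate number. After scaling to equal totals 2 were called, and 2 with the range of library numbers as covariate. In Arhgef11Sglt2 replicates 1 to 3 the proximal tubule medians were -0.60, 0 and -0.44, and those of the endothelial genes -0.11, 0.12 and 0.09, both lowest in replicate 1 and highest in replicate 2. None of 7 fibroblast, 7 macrophage, 9 distal nephron and 6 platelet and red cell genes passed in limma over all genes. An unadjusted p under 0.05 was found for 1, 0, 3 and 0 of them, where 21.1% of all genes had one. The part of these cells in the vessel gene values was not tested.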

How the data were processed

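RNA from 8 mouse kidney samples was sequenced as stranded poly(A) libraries in 1 pool, per the labels' protocols. The submitters' processing notes name Salmon 1.10.0, DESeq2 and build GRCm39. The annotation and gene filter the authors used, and which steps each tool did, were not given in the sources used here. Variance-stabilized log2 values were deposited, a unit read from the values themselves: all 8 columns share a minimum of 8.1275, that of a zero count. Normalized counts were obtained by inverting this transformation. Because the values are not counts, limma 3.58.1 (R 4.3.3) was used: group as the only term, a variance trend with the mean, 6 residual degrees of freedom, and Benjamini-Hochberg adjustment over 15948 genes at 0.05. It was also run on simulated data with independent noise for each gene. Those data held no effect shared within a library, so they do not test the method where 1 library is low in many genes. Symbols matched 15902 identifiers (99.71%). Promoter windows came from RefSeq (GRCm38.p6), trimmed to 250 bases before the start. Exact permutation tests over 56 splits were two-sided; the smallest possible p is 0.0179. Alternatives covered a filter, blocks, shrinkage, weights, pseudocounts, other scalings, a looser threshold and leaving out single libraries.

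The genes and lists were chosen with earlier results of these data known. Values per library are given for a fixed panel (Pecam1, Cdh5, Kdr, Flt1, Tek, Ehd3, Plvap, Notch3, Rgs5 and Des) and for any of the 40 genes past the threshold or without overlap (there were none); of each further list with genes described singly, called genes or the 3 with the smallest p were to be named. Other genes shown in full, such as Vwf, Igfbp3, Igfbp5, Cspg4, Emcn and Gpihbp1, and the ratios, were chosen after their values were seen. So were those outside this rule in the further lists (Angpt1, Pdgfb, Pdgfrb, Cldn5, Id3, Sele, Acta2, Myh11, Tagln and Cnn1). Library numbers fall in a lower range (control replicates 1 to 3, Arhgef11Sglt2 replicates 1 and 2) and an upper range (control replicates 4 and 5, Arhgef11Sglt2 replicate 3); what the ranges stand for is not stated.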

Additional observations from a re-analysis of the deposited data

Results flagged for a closer look

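In 4 of the 40 genes, control replicate 2 lay far below the other 4 control libraries by Dixon's criterion, a gap above 0.71 of the group's range on the deposited log2 scale. It had 2042 normalized counts of Flt1, 3931 of Eng, 2494 of Igfbp3 and 695 of Mcam. Chance flags about 1 in 20 groups, and the 40 genes are not independent because they share this library. Its estimated depth was 46000000 reads, an uncertain value because only 30.4% of its low values lay near a whole step. The part of sampling or of vessel content in these values was not tested.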

How the results depend on the processing

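None of the 40 genes passed in any of the 19 alternative fits or at an adjusted p of 0.1 in the original one; their smallest limma adjusted p was 0.0911 (Kdr, difference -0.20), in a fit chosen after seeing the data that had the median of the endothelial genes in each library as a covariate.  The median difference of the 40 genes ran from -0.04 to 0.07 with 1 library left out, and was 0.12 with the replicate block.

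The count over all genes was 354 in the original fit, 874 with sample weights, 1038 at an adjusted p of 0.1 and 24 to 1334 with 1 library left out. With a replicate block (libraries numbered 1 to 3 only) it was 0. The block rests on numbers alone: same-numbered libraries did not deviate together (correlations of -0.175, -0.088 and -0.007), and none correlated best with its own number. Genes called among the further lists numbered 5 in the original fit, 0 with the replicate block, 2 with the library number range as covariate, 2 after scaling to equal totals, 11 with sample weights, 8 with the endothelial covariate, 13 at 0.1, and 0 to 15 with 1 library left out.

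Of 759 values of the 40 genes under the alternative fits, 62 took the other sign, in 22 genes whose original difference was at most 0.13 in size; 18 genes never did. With the replicate block the values of other sign were Cdh5 0.14, Esam 0.01, Kdr 0.03, Tek 0.09, Eng 0.07, Robo4 0.10, Angpt2 0.01, Cyyr1 0.07, Mcam 0.08 and Des 0.04. With sample weights they were Tek 0.01, Egfl7 -0.03, Cyyr1 0.01 and Cspg4 -0.05, and for Arhgef11 0.03. Cspg4 was 0 with the number range, -0.01 with 1 added before the logarithm and 0 with 10 added, and Des was 0 at equal totals. With the endothelial covariate Mmrn2 was -0.04, Tie1 -0.03, Ptprb -0.05 and Sox18 -0.01. With 1 library left out the lowest and highest values were -0.22 and 0.03 (Cdh5), -0.08 and 0 (Esam), -0.16 and 0.18 (Mmrn2), -0.02 and 0.28 (Flt1), -0.18 and 0.01 (Tek), -0.09 and 0.10 (Tie1), -0.12 and 0.23 (Ptprb), -0.17 and 0.03 (Robo4), -0.15 and 0.05 (Angpt2), -0.01 and 0.15 (Dll4), -0.06 and 0.14 (Egfl7), -0.02 and 0.16 (Erg), -0.01 and 0.10 (Sox7), -0.05 and 0.06 (Sox18), -0.02 and 0.13 (Tspan7), -0.07 and 0.20 (Adgrl4), -0.11 and 0.01 (Cyyr1), -0.21 and 0.18 (Cspg4), -0.15 and 0.03 (Mcam), -0.11 and 0.05 (Des), and -0.10 and 0.08 (Arhgef11).

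With 1 library left out, the control mean was 1.38 to 1.65-fold the other for the ratio of Ehd3 to Plvap and 1.17 to 1.29-fold for that of Kdr to Flt1. With 3 libraries in 1 group, changes smaller than the intervals above were not detectable, and Lyve1 was too low to read. Those intervals are on the deposited scale, which compresses low genes.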
